A study of Mus musculus with 2 samples.

Results

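Of 20807 autosomal protein-coding genes of the mouse, 8233 have a CpG-rich promoter, and 514 of these promoters (6.24%) were closed in the thymus of both mice examined. Closed means here that DNase-seq, in which nuclei are treated with the nuclease DNase I and the ends of its cuts are sequenced, gave no peak within 1 kb of any annotated start site of the gene. The sequence was read around the 5′ end of each gene record of GENCODE release M21 on mm10 (GRCm38). A promoter counted as CpG-rich when the 500 bp on either side had a CpG ratio, the observed count of CpG dinucleotides over the count expected from the C and G content, of at least 0.6, and a GC content of at least 55%. Peaks came from the shorter of the 2 peak lists deposited for each library, the one with fewer peaks. The 514 promoters were therefore chosen by the accessibility measured in these same libraries, and their lack of peaks is a definition, not a result.

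The libraries came from whole thymus of 2 female B6CASTF1/J mice aged 36 days, 1 library per mouse, called mouse 1 and mouse 2 after their replicate numbers. B6CASTF1/J animals are hybrids of a laboratory strain and the wild-derived CAST strain; no treatment was given in the labels, and both mice form 1 group. The deposited files do not separate the alleles, and genes on the sex chromosomes were not used. In whole tissue, a promoter open in a few cells and one cut weakly in many cells cannot be told apart. The shorter list held 59484 peaks in mouse 1 and 72913 in mouse 2. Peak signals were whole multiples of a step of 0.00638 in mouse 1 and 0.00504 in mouse 2, which equals 157 and 198 times 1000000 reads if the scale is reads per 1000000. The promoters of 15 of 15 thymocyte markers (genes of developing T cells) had a peak in both mice, as against 2 of 5 B cell markers, 1 of 4 myeloid markers, 1 of 5 thymic epithelial markers, 4 of 6 endothelial and stromal markers, 0 of 3 neuronal markers and 0 of 3 hepatocyte markers. The neuronal marker Nefl, a neurofilament gene, is the only marker among the 514 closed promoters. No test was made in what follows, because the peaks themselves chose the promoters, both mice form 1 group and genes are not replicates.

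CpG dinucleotides are sparse in most of the mouse genome because the methylated cytosine in them mutates easily. Stretches that stay unmethylated, called CpG islands, keep them, and many promoters lie in such islands. The promoters of housekeeping genes belong to this class and are usually open in every tissue. Promoters of developmental regulators also lie in islands, and in tissues that do not use them they are commonly held silent by Polycomb group proteins. Some promoters of germ cell genes form a further group, which somatic tissues silence by DNA methylation or by repressors that bind an E-box. Neither methylation nor Polycomb marks were measured here.

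The letters of 3 closed promoters and 1 open promoter show single cases of CpG content. The stretches run from 180 bp before the start site to 20 bp from it, 5′ to 3′ on the strand of the gene, with each CpG in capitals, and are read from the GRCm38 reference. Fign (chr2:64098019-64098218, minus strand), which encodes fidgetin, an ATPase that severs microtubules, had the highest CpG ratio of all closed promoters. Hoxd13 (chr2:74668130-74668329, plus strand) is a homeobox gene of limb and genital development. Bhlhe23 (chr2:180776881-180777080, minus strand), a neural transcription factor gene, had no significant cutting in either mouse. Psma7 (chr2:180042414-180042613, minus strand), a proteasome subunit gene, was open in both mice and is shown for contrast.

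Fign: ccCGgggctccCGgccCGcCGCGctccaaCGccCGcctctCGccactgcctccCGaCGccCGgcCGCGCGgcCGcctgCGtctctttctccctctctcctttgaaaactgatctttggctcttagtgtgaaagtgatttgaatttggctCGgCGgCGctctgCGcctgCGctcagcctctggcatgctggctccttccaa

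Hoxd13: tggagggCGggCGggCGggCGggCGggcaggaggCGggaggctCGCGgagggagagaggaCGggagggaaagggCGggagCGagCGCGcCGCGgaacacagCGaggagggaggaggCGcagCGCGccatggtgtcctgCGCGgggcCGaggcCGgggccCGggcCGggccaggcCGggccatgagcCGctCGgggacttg

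Bhlhe23: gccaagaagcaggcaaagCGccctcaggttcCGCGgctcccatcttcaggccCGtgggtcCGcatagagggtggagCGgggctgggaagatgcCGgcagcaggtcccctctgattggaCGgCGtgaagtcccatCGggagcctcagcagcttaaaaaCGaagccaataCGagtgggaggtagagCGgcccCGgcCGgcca

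Psma7: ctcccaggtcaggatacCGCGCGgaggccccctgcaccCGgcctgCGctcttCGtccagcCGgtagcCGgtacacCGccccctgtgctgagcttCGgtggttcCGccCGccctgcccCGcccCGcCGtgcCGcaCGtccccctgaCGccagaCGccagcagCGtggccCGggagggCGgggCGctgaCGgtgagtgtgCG

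The 200 bases hold 21 CpGs in Fign, 28 in Hoxd13 and 15 in Bhlhe23, against 25 in Psma7. The closed Hoxd13 promoter thus held more CpGs in this stretch than the open one, and the other closed promoters held fewer. Over the 500 bp on either side of the start site, all of the closed promoters shown held fewer. Fign had 92 CpGs there, Hoxd13 118 and Bhlhe23 99, against 128 in Psma7. At Psma7 the strongest peak had a signal of 3.99 in mouse 1 and 12.7 in mouse 2. None of the others had a peak of the shorter list within 1 kb.

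A short motif, the E-box, occurred in 8 of the 12 closed promoters of germ cell genes. The next stretches, from 5 promoters that hold it near the start site, run from 130 bp before the start site to 20 bp from it and capitalise the E-box TCACGTG or its reverse complement. They come from Sycp3 (chr10:88459439-88459588, plus strand), which encodes a protein of the synaptonemal complex that joins chromosomes in meiosis, Fkbp6 (chr5:135350025-135350174, minus strand), a gene needed for male meiosis, Tex12 (chr9:50561306-50561455, minus strand), another synaptonemal complex gene, Rnf212 (chr5:108774963-108775112, minus strand), a gene of meiotic crossing over, and Stk31 (chr6:49395474-49395623, plus strand), a germ cell kinase gene.

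Sycp3: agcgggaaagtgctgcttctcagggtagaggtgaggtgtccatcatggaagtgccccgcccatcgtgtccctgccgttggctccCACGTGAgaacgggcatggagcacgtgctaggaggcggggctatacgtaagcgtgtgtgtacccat

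Fkbp6: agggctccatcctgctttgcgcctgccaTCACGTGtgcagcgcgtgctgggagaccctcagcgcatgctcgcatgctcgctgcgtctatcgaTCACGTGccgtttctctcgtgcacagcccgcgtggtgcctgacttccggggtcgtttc

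Tex12: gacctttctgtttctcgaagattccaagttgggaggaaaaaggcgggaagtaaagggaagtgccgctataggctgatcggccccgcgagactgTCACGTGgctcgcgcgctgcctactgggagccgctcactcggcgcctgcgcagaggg

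Rnf212: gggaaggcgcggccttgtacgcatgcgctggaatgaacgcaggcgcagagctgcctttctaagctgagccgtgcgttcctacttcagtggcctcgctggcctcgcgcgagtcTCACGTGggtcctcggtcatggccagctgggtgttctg

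Stk31: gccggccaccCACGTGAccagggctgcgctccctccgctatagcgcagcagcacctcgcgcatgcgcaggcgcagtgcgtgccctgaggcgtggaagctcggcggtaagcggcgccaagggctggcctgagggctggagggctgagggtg

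The E-box begins 46 bp before the start site in Sycp3, at 2 places in Fkbp6 with the nearer one 38 bp before it, 37 bp in Tex12, 18 bp in Rnf212 and 120 bp in Stk31. Of these genes, Sycp3 alone had cutting in both mice.

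Closed promoters had fewer CpGs than open ones, but only slightly. Their median CpG ratio was 0.727, against 0.806 for the 7099 CpG-rich promoters open in both mice. The 613 promoters open in mouse 2 only stood between them at 0.757. The median GC content was nearly equal, at 62.9% and 62.3% for closed and open. Counted over the same window, closed promoters held a median of 70 CpGs and open promoters 77. The run of CpG-rich sequence around the start site, built from 200 bp windows that meet both thresholds, had a median length of 985 bp in closed and 1010 bp in open promoters.

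The share of promoters closed in both mice fell from each range of the CpG ratio to the next. Of 764 promoters with a ratio of 0.6 to 0.65, 104 (13.6%) were closed in both mice. Of 387 promoters with a ratio of at least 1, 5 (1.29%) were. Mouse 1 alone had no peak at 26.7% and 8.01% of these promoters, and mouse 2 alone at 13.7% and 1.29%. The fall in mouse 1 was not steady: its lowest share, 5.94%, was at a ratio of 0.95 to 1. Over all CpG-rich promoters, 1127 (13.7%) were closed in mouse 1 and 521 (6.33%) in mouse 2. The fall with the CpG ratio was also present within a narrow range of GC content: among promoters of 60 to 65% GC, 14.1% were closed at a ratio of 0.6 to 0.7 and 1.59% at 0.9 or more. By GC content the share closed in both mice was nearly level, with 5.87% closed at 55 to 60% GC 6.85% at 70 to 75% GC and 3.19% at 75% or more. In mouse 1 alone it was 10.5% at 55 to 60% GC and 17.9% at 70 to 75%.

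**Figure D1:**
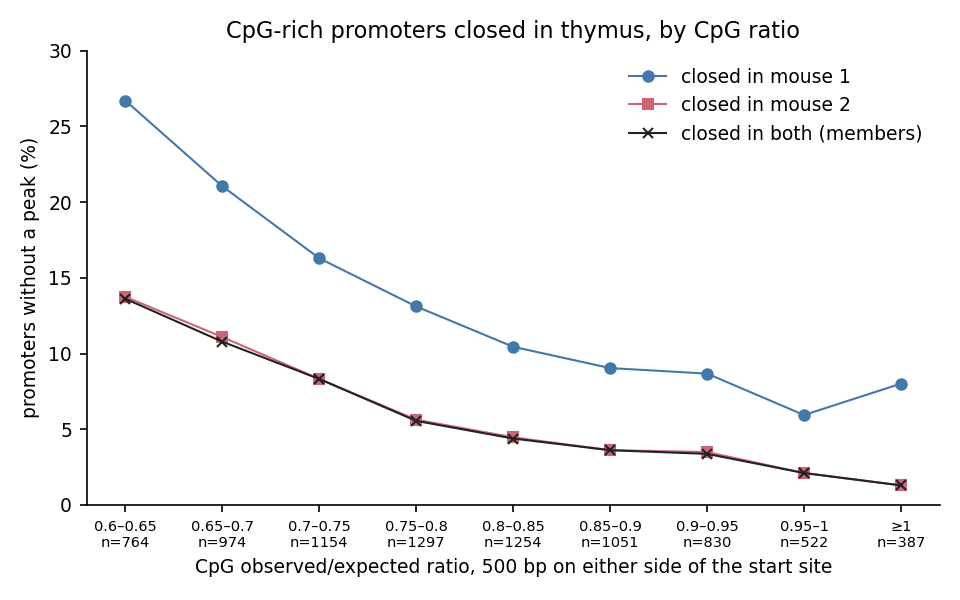
Share of CpG-rich promoters without a peak (y axis, percent) in 9 ranges of the CpG ratio (x axis, with the number of promoters), for mouse 1, mouse 2 and both together. The share closed in both falls from 13.6% to 1.29%, and mouse 1 lies above mouse 2 in every range.

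The length of the CpG-rich run had another pattern. The share of closed promoters was 16.1% where the run was shorter than 500 bp, 5.09% at 1000 to 1500 bp and 11.3% at 2000 bp or more. Both the shortest and the longest runs therefore held more closed promoters than the middle. Of the 35 closed promoters with a run of at least 2000 bp, 13 belonged to developmental transcription factors. Around the 81 closed promoters of such factors, the CpG density was highest 300 to 400 bp downstream of the start site, not at it. Between 1000 and 2000 bp downstream these factors held 3.77 CpGs per 100 bp, against 2.46 for all closed and 1.67 for open promoters. A long run was not particular to the closed factors. Its median was 1260 bp in these 81 and 1320 bp in the 47 promoters of such factors open in both mice. The downstream density of those 47 was not counted separately.

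**Figure D2:**
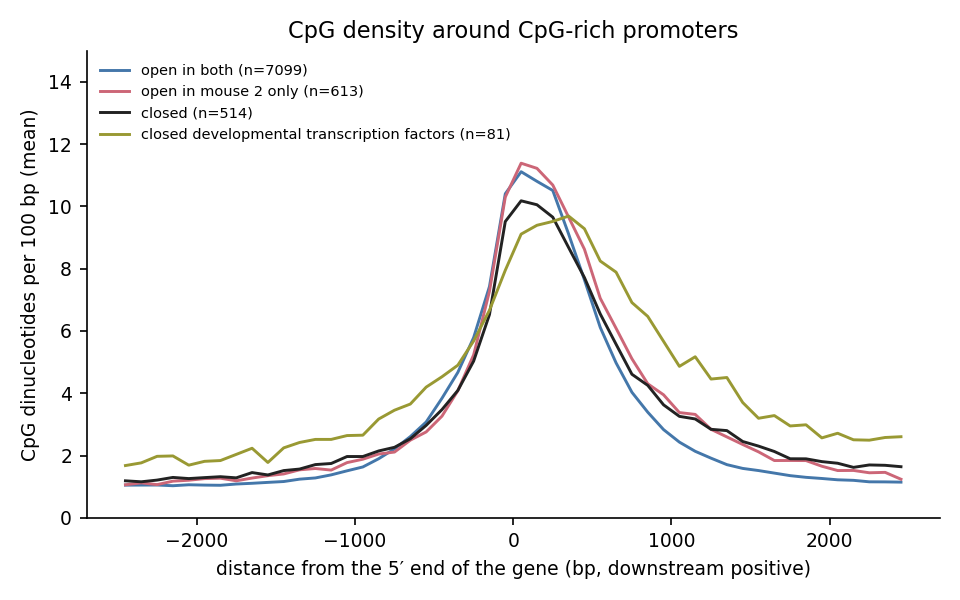
Mean number of CpG dinucleotides per 100 bp (y axis) by distance from the 5′ end of the gene (x axis, bp, downstream positive) for 4 groups of CpG-rich promoters. In the 200 bp at the centre, closed promoters average 9.85 CpGs per 100 bp and open ones 10.8, while the closed promoters of developmental factors have a lower centre and a broad shoulder downstream.

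Closed genes had simpler annotations than open ones. The median number of annotated start sites was 2 in closed and 5 in open genes. A single start site was annotated for 161 closed genes (31.3%) and for 689 open genes (9.71%). Part of this follows from the rule, since every further start site adds a window in which a peak can fall. With peaks counted at the 5′ end of the gene record only, 16.4% of the CpG-rich genes with 1 start site and 2.40% of those with 10 or more were closed. Another protein-coding gene began within 1 kb of 30 closed promoters (5.84%) and of 1712 open ones (24.1%), and such a neighbour can also bring a peak into the window.

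The surroundings of closed promoters held few peaks. The nearest peak lay at a median distance of 23.95 kb in mouse 1 and 13.7 kb in mouse 2. For the 6908 closed promoters that are not CpG-rich these distances were 47.3 and 34.1 kb, so closed CpG-rich promoters lay nearer to accessible chromatin. Within 50 kb on either side, closed CpG-rich promoters had a median of 1 peak in mouse 1 and 2 in mouse 2, and open ones 7 in each. These counts include the promoter itself, which has no peak in closed genes by the rule, so part of this gap also follows from the choice. In 346 closed genes (67.3%) neither mouse had a peak anywhere in the gene body, as against 30.5% of all autosomal protein-coding genes and 83.1% of the closed genes that are not CpG-rich. The gene body includes the start site, where closed genes have no peak by the rule. Part of the gap to all genes therefore follows from the choice of members. A gene body peak was present in both mice in 103 closed genes and in 1 mouse in 65. Fam189a1, Rfx4 (a ciliary and brain transcription factor gene), Slit1 (an axon guidance cue), Clmp (a cell adhesion gene) and Bin1 (a gene of membrane curvature) held most, with 9 and 8, 9 and 6, 6 and 8, 6 and 8, and 6 and 7 gene body peaks in mouse 1 and mouse 2.

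Transcription factor genes of families that lay out the body and its organs formed the largest named group. Of 167 such genes with CpG-rich promoters, 81 (48.5%) were closed in both mice, 38 were open in mouse 2 only and 47 in both. Among all CpG-rich promoters the share was 6.24%; since the peaks chose the members, these list shares describe the choice. Mouse 1 alone had 119 of the 167 closed and mouse 2 had 82. The 167 were matched by gene symbol and include Foxo1, Foxo3, Foxk1 and Foxm1, whose roles are not limited to laying out the body. All of these were open in both mice, so the closed share depends on which genes were listed. The listed homeobox genes, whose proteins assign position and organ identity, were closed in 58 of 94 cases (61.7%). This list is not complete, and the share holds for the listed genes only. Outside it are, for example, Lbx1, which was closed, and Satb1, which was open in both mice. The Fox, Sox and T-box genes were closed in 13 of 49 cases (26.5%), and neural bHLH and zinc finger genes in 10 of 24 (41.7%). The difference between mice was widest in this last list, with 22 of 24 closed in mouse 1 and 10 in mouse 2.

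Among the closed homeobox genes, En2, a gene of the midbrain and cerebellum, had the highest CpG ratio (1.00). It had 0 bp of significant cutting within 1 kb in mouse 1 and 250 bp in mouse 2. Nkx6-2, a gene of the ventral neural tube, had 0 and 291 bp. Tlx3, which specifies excitatory neurons of the spinal cord, had 0 and 9 bp. The cutting was thus seen in mouse 2 only for each of these genes. Sox11, a neural progenitor factor gene, showed 0 and 479 bp, whereas Foxf2, a gene of gut mesenchyme, showed 55 bp in mouse 1 and 0 in mouse 2. Foxf1, its close relative, had 0 bp in both mice. In the bHLH and zinc finger list, Bhlhe23 had 0 bp in both, Zic2 (forebrain) 0 and 382 bp, and Twist1 (mesoderm) 0 and 375 bp.

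The open members of the same families included factors with known roles in lymphocytes and in dividing cells. Foxn3, a checkpoint-related forkhead gene, had the strongest promoter peak of the 47, with a signal of 21.9 in mouse 1 and 39.7 in mouse 2. Foxo3 had 16.8 and 30.5, and Foxo1, which acts in T cell homing and survival, had 3.39 and 12.4. The signal in mouse 2 was higher for each of these genes.

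Hox genes, which pattern the body axis from 4 clusters, differed by cluster. Of 20 Hox genes with CpG-rich promoters, 15 were closed and 5 open in both mice. All 7 of the HoxD cluster on chromosome 2 were closed (Hoxd1, Hoxd3, Hoxd4, Hoxd8, Hoxd9, Hoxd10 and Hoxd13), but the start sites of Hoxd3 and Hoxd4 lie next to each other and are not independent. In the HoxC cluster on chromosome 15, 4 of 5 were closed, and Hoxc13 was open with signals of 0.332 and 0.524. Both CpG-rich HoxB genes on chromosome 11 were closed. In the HoxA cluster on chromosome 6, 2 of 6 were closed, and the highest signals among the open ones were at Hoxa4, with 2.97 in mouse 1 and 8.66 in mouse 2.

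Secreted signals of development, which instruct neighbouring cells, were the next group. Of 43 genes for WNT, FGF, BMP and hedgehog ligands and their secreted inhibitors, 21 (48.8%) were closed in both mice, 29 in mouse 1 and 21 in mouse 2. Wnt4, a gene of kidney and gonad formation, had the highest CpG ratio among the closed ones (0.859), with 0 bp of cutting in mouse 1 and 206 bp in mouse 2. Bmp8b had 0 and 107 bp, and Bmp6, a regulator of iron balance, 0 and 697 bp. Fgf8, which patterns limb and brain, had a longer-list signal of 1.01 in mouse 2 and no entry in mouse 1.

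Genes of nerve cells made up another set of lists. Of 35 neurotransmitter receptor genes, 14 (40%) were closed. Of these, the kainate receptor gene Grik3 had cutting over 78 bp in mouse 1 and 282 bp in mouse 2, the adrenergic receptor gene Adra1d over 0 and 222 bp, and the NMDA receptor gene Grin2a over 0 and 4 bp. Of 55 ion channel genes, from voltage-gated and other families such as Kcnj and Kcnk, 13 (23.6%) were closed. The calcium channel gene Cacna1i had cutting over 0 and 619 bp, and the potassium channel gene Kcnk9 over 0 and 144 bp. Kcnj12, also a potassium channel gene, had 0 bp in both mice. Cadherin genes were closed in 4 of 23 cases (17.4%), namely Dchs2, Cdh6, Cdh13 and Fat3. Axon guidance and synaptic adhesion genes stood at 3 of 49 (6.12%). Those 3 were Epha8, Slit1 and Lrfn3, and none had any cutting in either mouse. In mouse 1 alone, however, 19 of the 49 (38.8%) were closed.

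Matrix, imprinted and housekeeping genes completed the lists. Collagen and matrix genes were closed in 10 of 36 cases (27.8%), with 26 closed in mouse 1 alone. Adamtsl3, Adamts8 and Fbn2, the highest by CpG ratio of the closed ones, had 0 bp of cutting in mouse 1 and 199, 436 and 371 bp in mouse 2. Of 13 imprinted genes, which are expressed from 1 parental copy, 3 were closed: Dio3, an enzyme gene of thyroid hormone breakdown, Nnat and Nap1l5. Dio3 had 49 bp of cutting in mouse 1 and 0 in mouse 2, and the other two had 0 bp in mouse 1 and 143 and 347 bp in mouse 2. None of 16 thymocyte genes, 55 ribosomal protein genes and 19 proteasome genes was closed in either mouse. Of the 514 closed genes, 161 (31.3%) belonged to 1 of these 14 lists.

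**Figure D3:**
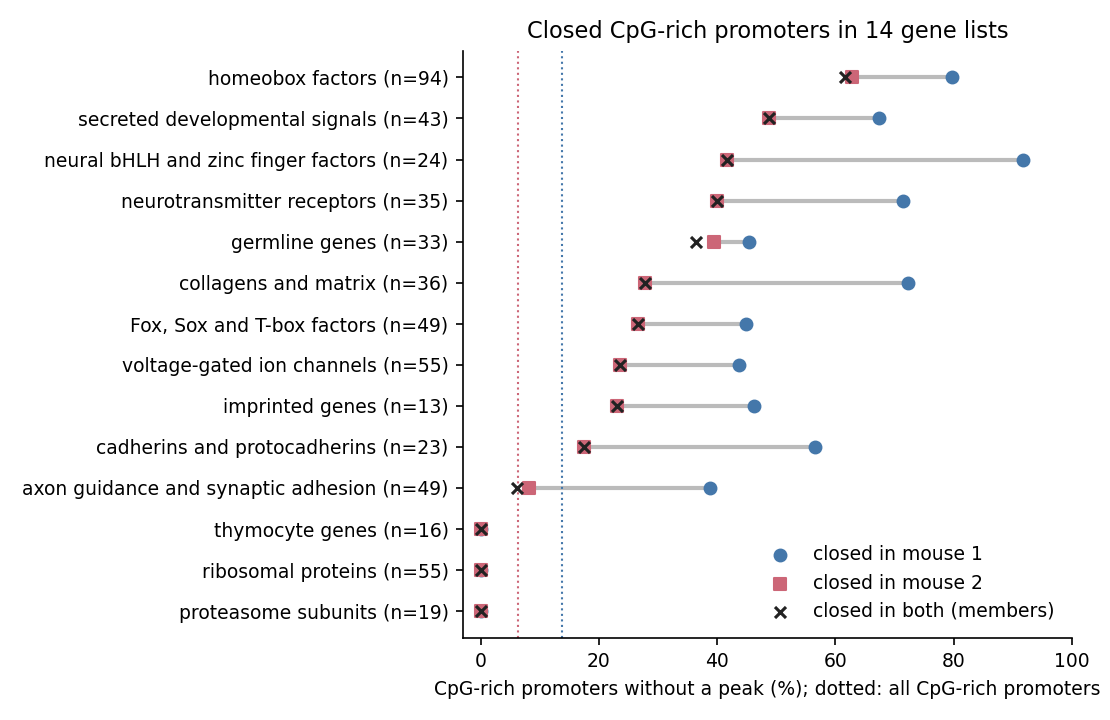
Share of CpG-rich promoters without a peak (x axis, percent) in 14 gene lists (y axis, with the number of CpG-rich promoters), for mouse 1, mouse 2 and both. Lists were matched by gene symbol, and the list drawn as voltage-gated ion channels also holds Kcnj and Kcnk genes. Dotted vertical lines mark all CpG-rich promoters, 13.7% in mouse 1 and 6.33% in mouse 2; the lists run from 61.7% for homeobox factors to 0 for thymocyte, ribosomal and proteasome genes.

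Further lists were written after the members had been seen, and serve as a description only. Their shares stand against 6.24% closed among all CpG-rich promoters. Of 139 solute carrier genes, which encode membrane transporters, 17 (12.2%) were closed, Slc6a20a, Slc47a2 and Slc6a17 leading by CpG ratio. Of 32 receptor tyrosine kinase genes 5 (15.6%) were closed, namely Epha8, Erbb4, Erbb2, Ret and Egfr. Zinc finger genes named Zfp were closed in 5 of 131 cases (Zfp541, Zfp804a, Zfp296, Zfp462 and Zfp872). This share, 3.82%, was below that of all CpG-rich promoters. Of 29 clustered histone genes 4 (13.8%) were closed. These 4 (Hist1h2ap, Hist1h2br, Hist1h2ao and Hist1h2bq) have no unique 36 bp word within 1 kb, so reads of that length cannot be placed there. Of the 514, 323 were in none of the lists.

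Listed germ cell genes were closed in 12 of 33 cases (36.4%), with 15 closed in mouse 1 and 13 in mouse 2. The list was matched by gene symbol. Its members open in both mice include Tex2, Tex10, Tex30, Tex261 and Tex264, which may not be germ cell genes. The shares therefore hold for the listed genes only. Besides the genes shown above, the closed ones were Mael, D1Pas1, Tdrd1 and Tdrd6, which act in germ cells, and the meiotic genes Sycp1, Sycp2 and Smc1b. Cutting covered 95 bp in mouse 1 and 616 bp in mouse 2 at Sycp3, and 0 bp in both at Fkbp6, Tex12 and Sycp2. Stk31 and Rnf212 had 0 bp in mouse 1 and 321 and 316 bp in mouse 2, and D1Pas1 had 45 bp in mouse 1 and 0 in mouse 2. Closed germ cell promoters were thus partly cut and partly uncut. The E-box TCACGTG occurred in 8 of the 12 closed promoters (66.7%) and in 4 of the 21 other CpG-rich promoters of the list (19%). Of the open Tex genes named above, Tex10 alone held it. The E-box was in 7.39% of all closed CpG-rich promoters, in 11.8% of the open ones and in 8.00% of the promoters of all genes. Its letters written backwards occurred in 6.81% and 7.51% of closed and open CpG-rich promoters. The E-box was not the only motif with a higher share in the closed germ cell promoters than in the other 21. The ETS motif stood at 33.3% and 9.52%, ZBTB33 at 33.3% and 4.76%, and NRF1 at 16.7% and 4.76%. NF-Y (16.7% and 33.3%) and the E2F motif TTCCCGCC (16.7% and 28.6%) ran the other way. An exact match describes the sequence only, and no binding was measured.

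Short motifs of factors that bind housekeeping promoters were rarer in closed promoters. The motif of ETS factors, CCGGAAGT, was in 11 closed promoters (2.14%) and in 927 open ones (13.1%), as against 7.26% of all genes. The motif of YY1, AAGATGGCG, was in 0.973% of closed and 7.18% of open promoters, and 3.60% of all genes. These shares cover the 500 bp on either side of the 5′ end and both strands. No motif of the 17 searched contains another one whole. Written backwards, the ETS motif was in 2.92% of closed and 3.54% of open promoters, so the 2 groups lay closer together for the same letters in reverse order. The YY1 motif backwards was in 0.778% of closed and 0.282% of open promoters.

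The same direction was found for NRF1 (GCGCATGCG, 1.75% closed and 5.96% open, 3.02% of all genes), for CREB and ATF factors (TGACGTCA, 1.56% and 5.52%, 3.33% of all genes) and for RFX factors (GTTGCCAT, 0.584% and 2.72%, 2.77% of all genes). Backwards, the closed and open shares were 0% and 0.282% for NRF1, 0.389% and 1.55% for CREB and ATF, and 0.778% and 0.423% for RFX. For NRF1 and for CREB and ATF, the reversed letters were thus also rarer in closed promoters. For ZBTB33 (TCTCGCGA) the shares were 1.56% and 4.65%, with 2.02% of all genes and 4.67% and 4.42% backwards. For NF-Y (AGCCAAT) they were 12.1% and 16.7%, with 15.1% of all genes. None of 6 motifs (ETS, NRF1, NF-Y, CREB, YY1 and ZBTB33) occurred in 81.3% of closed promoters and in 57.3% of open ones. The 613 promoters open in mouse 2 only were like the closed ones in this, at 83.8%. The ETS shares hardly moved with CpG content: at a CpG ratio of 0.6 to 0.7 they were 2.39% closed and 12.7% open, and at 0.8 to 0.9 they were 2.15% and 14.1%. The YY1 stretch of the open proteasome gene Psmd7 (chr8:107588445-107588554, minus strand, GRCm38, from 90 bp before the start site to 20 bp from it) shows the motif in capitals.

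Psmd7: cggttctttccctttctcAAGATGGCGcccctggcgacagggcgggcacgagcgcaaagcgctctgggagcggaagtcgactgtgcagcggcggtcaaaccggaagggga

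The promoter of Psmd7 had peak signals of 4.69 in mouse 1 and 13.3 in mouse 2.

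Other motifs did not separate the groups or ran the other way. The CTCF core AGGGGGCGC was in 6.42% of closed and 6.71% of open promoters (3.51% of all genes), and TATAAA in 14.8% and 15.1% (32.2% of all genes). The GC box GGGCGG was in 92.2% and 95.3% (61.4% of all genes). In the closed promoters of developmental factors the NF-Y motif was in 25.9%, above both groups. A part of the site of REST, a repressor of neuronal genes outside the nervous system, spelled GGACAGCGC, was in 34 closed promoters (6.61%) and 2.86% of open ones, with 1.75% of all genes. Backwards it was in 0.973% and 1.48%. Of the 34, 7 are clone-named genes on chromosome 14 that have under 90% unique sequence. Among promoters of at least 90% unique sequence the shares were 5.82% closed and 2.84% open. The motif was in 0 of the 30 closed promoters of the axon guidance, channel and receptor lists. It occurred in Mapk8ip1 (chr2:92401244-92401313, minus strand, GRCm38), a scaffold gene of JNK signalling used in neurons and islet cells, whose letters from 50 bp before the start site to 20 bp from it are given with the motif, here as its reverse complement, in capitals.

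Mapk8ip1: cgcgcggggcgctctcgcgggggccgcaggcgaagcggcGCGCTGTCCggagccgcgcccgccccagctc

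The Mapk8ip1 promoter had 0 bp of significant cutting in mouse 1 and 45 bp in mouse 2.

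**Figure D4:**
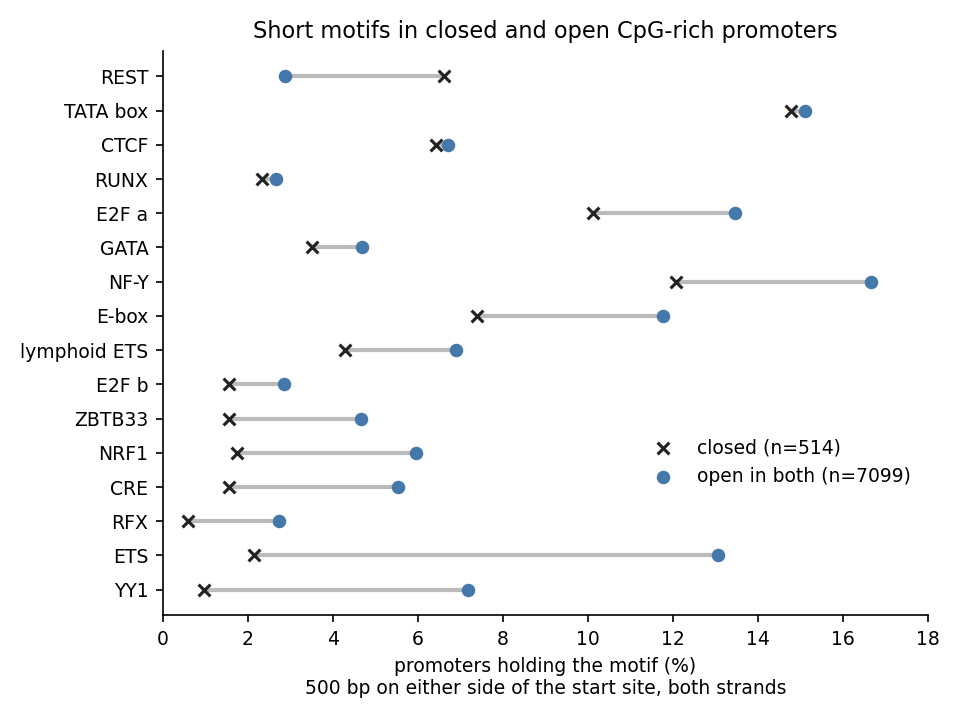
Share of promoters that hold a motif (x axis, percent) for 16 motifs (y axis, ordered by the ratio of the shares) in 514 closed and 7099 open CpG-rich promoters; the GC box, in over 90% of each group, is left out. ETS and YY1 motifs lie farthest to the open side, and the REST motif alone has a higher share in closed promoters.

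Closed did not mean uncut, and the mice differed in this. Bases where the authors' FDR of the local cut rate was below 0.05 are called significant cutting. Such cutting occurred within 1 kb of a start site at 74 closed promoters (14.4%) in mouse 1 and 335 (65.2%) in mouse 2. Over all autosomal protein-coding genes the shares were 63.5% and 70.4%, and over all CpG-rich promoters 91.4% and 97.8%. Thus closed promoters in mouse 2 were cut nearly as often as genes at large, but less often than CpG-rich promoters. In mouse 1 they were cut far less often than either. Peaks and cutting come from the same libraries, so a lower share of cut promoters follows in part from the choice of members. Cutting was found in both mice at 57 closed promoters (11.1%, as against 62.7% of all genes) and in neither at 162 (31.5%, as against 28.8%). Among closed promoters that are not CpG-rich, 4.79% were cut in mouse 1 and 13.6% in mouse 2. In both mice, therefore, a larger share of CpG-rich than of other closed promoters was cut. However, under 90% of the 36 bp words were unique at 9.73% of the closed CpG-rich and 32.6% of the other closed promoters. The part of unique sequence in this difference was not tested.

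The cutting was narrow and weak. Where present, it covered a median of 61.5 bp in mouse 1 and 271 bp in mouse 2. Within 1 kb of the 5′ end alone, promoters open in both mice had medians of 1437 and 1321 bp, and this gap also follows in part from the choice. The lowest FDR was taken over the whole of each cut region that reaches into the window, so it can come from bases beyond 1 kb. It was at most 0.01 at 17 of the 74 cut promoters in mouse 1 and at 224 of the 335 in mouse 2. It was at most 0.001 at 3 and at 46. Footprints, short stretches protected from cutting inside a cut region, were listed at 19 closed promoters (3.70%) in mouse 1 and at 261 (50.8%) in mouse 2, as against 60.5% and 68% of all genes. Of the 57 promoters cut in both mice, 53 had more cut bases in mouse 2. Mouse 2 had the larger library on the reading above, and the part of depth in this difference was not tested.

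**Figure D5:**
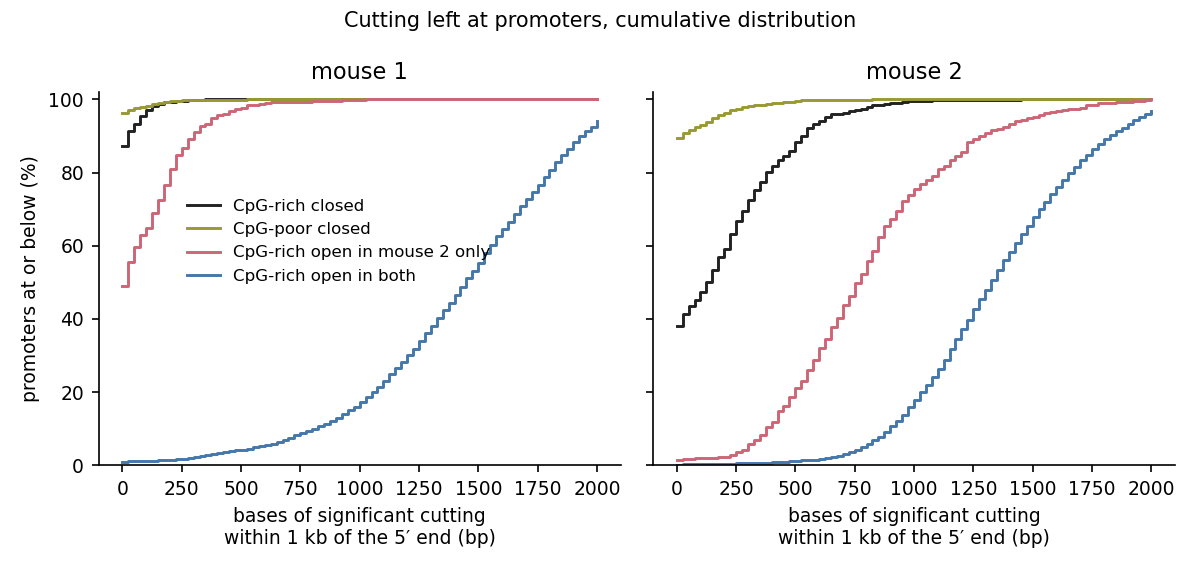
Cumulative share of promoters (y axis, percent) with at most a given number of bases of significant cutting within 1 kb of the 5′ end (x axis, bp), for mouse 1 (left) and mouse 2 (right) in 4 groups. Closed CpG-rich promoters lie close to the other closed promoters in mouse 1, and in mouse 2 between them and the promoters open in mouse 2 only.

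The longer peak list of the same libraries gave a similar picture, but it is not independent of the rule or of the cutting. It had a peak at 44 closed promoters (8.56%) in mouse 1 and at 311 (60.5%) in mouse 2, against 62.3% and 69.6% of all genes. The median signal of these peaks was 0.252 in mouse 1 (lowest 0.0957, highest 0.581) and 0.322 in mouse 2 (lowest 0.101, highest 1.04). Promoters open in both mice had median shorter-list signals of 5.99 and 16.1, a gap that follows in part from the choice of members. Their signal was at or below that of the highest closed promoter at 199 promoters (2.80%) in mouse 1 and at 92 (1.30%) in mouse 2. Of the 613 promoters open in mouse 2 only, 474 were at or below it in mouse 2. At 31 of the 32 closed promoters with a peak in both mice, the signal was higher in mouse 2.

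The strongest peaks of the longer list lay at Ttbk1, a neuronal kinase gene, with a signal of 0.530 in mouse 1 and 0.736 in mouse 2. Samd14 followed with 0.453 and 0.766, and Pltp, the phospholipid transfer protein gene, with 0 and 1.04. Tcea3, a transcription elongation factor gene, had 0.402 and 0.620, and Lbx1, a homeobox gene of migrating muscle precursors that is outside the lists, had 0.332 and 0.645. These genes had cutting in both mice except Pltp, which had it in mouse 2 only. Ap1m2 (0 and 0.982) and Nxph4 (0 and 0.947) had a peak in mouse 2 only. Oxtr, the oxytocin receptor gene, was higher in mouse 1 (0.581) than in mouse 2 (0.393).

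Many of the most CpG-rich closed promoters were cut in mouse 2 only. Fign, with a CpG ratio of 1.07, had 0 bp of significant cutting in mouse 1 and 489 bp in mouse 2. Its nearest peak was 924 kb away in mouse 1 and 395 kb in mouse 2, so the promoter stood alone in a long closed region. Gnai1, a G protein subunit gene, had a ratio of 1.00, 0 and 956 bp of cutting, and its nearest peak at 1727 and 786 kb. Naaladl2 had a ratio of 1.02 and 24 and 319 bp. Tmem200b (0 and 499 bp), Wtip (0 and 267 bp), Ovol1, an epithelial transcription factor gene (0 and 369 bp), Cabp7 (0 and 100 bp) and Ajap1 (0 and 106 bp) followed. BC107364, also with a ratio of 1.00, has no unique 36 bp word in its window and showed no cutting.

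Some closed promoters lie in repeated sequence, where short reads cannot be placed. Of the 514, 50 had under 90% of the 36 bp words within 1 kb unique in the genome, and 30 had under 10%. Of these 50, 37 had no cutting in either mouse. Among the 464 with at least 90% unique words, 125 (26.9%) had none. The highest CpG ratios among these were at Bhlhe23 (0.943), the adaptor gene She (0.926), Kcnj12 (0.922), Tcfl5 (0.906), a factor of male germ cells, and Aqp5 (0.905), a water channel of glands. Each had all or over 90% of its words unique, and 0 bp of cutting in both mice.

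Promoters lie on both sides of each threshold without a gap. At the CpG threshold, Neto1 (0.6004), Dll4 (0.601) and Col2a1 (0.602) were inside, and P2rx5 and Cryba2 (0.598 each) were just outside. At the GC threshold, Frzb, Zic1 and Htr1f were inside with 55.1% each, and Slc16a14, Brinp2 and Pfn3 outside with 54.9% each. For the distance to a peak, Slc6a4 was inside with its nearest peaks at 1003 bp in mouse 1 and 1023 bp in mouse 2, followed by Oxtr (1097 and 1038 bp) and Ap1m2 (4464 and 1044 bp). Outside were Wnt9a, whose nearest peak in mouse 2 lay at 971 bp, Mei1, with 944 bp in both mice, and Klf15, which lay between them in mouse 2. The closed genes Dll4, a Notch ligand gene of thymic epithelium, and Oxtr lie so near a limit that their place in the group rests on it.

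Promoters open in a single mouse were almost all open in mouse 2. There were 613 of these and 7 open in mouse 1 only. In mouse 1, 343 of the 613 (56%) had significant cutting, and 286 (46.7%) a peak of the longer list. The highest signals in mouse 2 were at Plxdc1 (5.49), P3h4, a collagen-modifying enzyme gene (4.64), and Scn4b, a sodium channel subunit gene (4.41). Their longer-list signals in mouse 1 were 1.42, 1.30 and 1.26. The 7 open in mouse 1 only were led by Btbd18 (0.798), Slc25a31 (0.523), a germ cell ADP/ATP carrier gene, and Ephb4 (0.491). In mouse 2 the longer list held peaks at these genes with signals of 0.418, 0.408 and 0.756, so that Ephb4 had the higher signal in the mouse in which it counted as closed.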

How the data were processed

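DNase-seq of thymus was analysed from 2 mice, 1 library each. The authors deposited, per library and not pooled, 2 peak lists, runs of bases with an FDR for their rate of cutting, and footprints, on mm10 per the labels. The aligner and each caller with its settings were not given in the sources used here. The peak signal that the authors deposited is normalised for depth: 100% of values were whole multiples of 1 step within 0.1 steps. The p-value column that the authors deposited is an FDR, listed only below 0.05. The score column of the deposited footprint files is constant and only positions were used. Counting intervals cover no biological error, and read depth is known only if the scale is reads per 1000000.

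Genes and start sites were taken from GENCODE M21 and sequence from the RefSeq copy of GRCm38. Touching runs were merged into regions of significant cutting. Overlap needed at least 1 bp. Uniqueness is the share of 36 bp words within 1 kb of the 5′ end that occur once on either strand of the assembled chromosomes. The functions were tested on simulated data and against bedtools 2.31.1, with Python 3.11.15, numpy 2.4.6 and pandas 2.3.3.

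The members, the 14 gene lists and the 17 motifs were chosen with earlier results of these data known, and 4 further lists after the members were seen. No test was made: the peaks chose the members, both mice form 1 group, and genes are not replicates. Named genes are the 10 members highest by CpG ratio, by longer-list signal and by CpG ratio among those without cutting, the 3 highest by CpG ratio of each list (all where a list has 6 or fewer), the 5 with most gene body peaks, and genes at the thresholds or open in 1 mouse. Clone-style names were counted only (38 members). Of the genes this rule picks, 2 are not reported here. The Hox genes, open forkhead genes, the germ cell sequences shown, Hoxd13, Mapk8ip1, Psma7 and Psmd7 were chosen after their values were seen, as examples. Alternatives were the longer list, other windows, limits and start sites, unique sequence and each mouse alone.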

Additional observations from a re-analysis of the deposited data

How the results depend on the processing

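The number of closed CpG-rich promoters was 514, and with the longer list it was 191. With a CpG ratio of at least 0.75 it was 209. It kept within 1.5 times with windows of 500 bp or 2.5 kb, with the 5′ end only, with a GC content of at least 60% and with at least 90% unique sequence. With each mouse alone it ranged from 521 to 1127, the share closed from 6.33% to 13.7%, and the median CpG ratio of closed minus open promoters from -0.0751 to -0.0650. That difference was negative under every alternative run.

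The closed share of developmental transcription factors was 48.5%, fell to 22.8% with the longer list and ranged from 49.1% to 71.3% with each mouse alone. The germ cell share of 36.4% changed more: it was 12.1% with the longer list, 42.4% with a window of 500 bp, 9.09% at a CpG ratio of at least 0.75 and 17.6% at a GC content of at least 60%, and ranged from 39.4% to 45.5% with each mouse alone. The share of closed promoters cut in both mice was 11.1%; counted in 1 mouse alone, over the promoters closed in that mouse, it was 37.0% in mouse 1 and 65.6% in mouse 2. With an FDR of at most 0.01 it fell to 2.53%, and with at most 0.001 to 0.584%. The cause was not tested. No paired analysis was possible because both mice belong to 1 group and no result comes from a test. With 2 mice, the spread between animals is known from 2 values only.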
